A study of Mus musculus with 8 samples.

Results

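*Mcpt4* encodes a mouse mast cell chymase, and it lies among related serine protease genes on chromosome 14. The 9 genes followed here were *Mcpt4*, *Mcpt1*, *Mcpt2*, *Mcpt9*, *Cma1*, *Cma2*, *Mcpt8*, *Ctsg* and *Gzmb*, taken by gene name from a table of 54532 genes. *Mcpt4* was selected on its measured values, because its FPKM (fragments scaled by gene length and library size) was high in the *in vitro* samples, and its own levels are therefore given as a description with no test. The other 8 genes were taken as its chromosome 14 neighbours and paralogs. Of the 9, *Mcpt4* and *Mcpt2* reached the level needed for testing (0.5 FPKM in 2 or more libraries), as did 15708 genes in all, and 7 of the 9 did not.

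Chymases are serine proteases that cut after aromatic residues, and connective tissue mast cells store them in granules bound to heparin and serglycin. Their known substrates include angiotensin I, fibronectin and endothelin, and in the heart mast cells are found between the muscle fibres and around vessels. Granzymes are related proteases of cytotoxic lymphocytes, cathepsin G belongs to neutrophils, and *Mcpt8* is a marker of basophils.

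The study asked what holds back the conversion of cardiac fibroblasts to cardiomyocytes in the heart. MICFs, primary cells from the infarcted hearts of C57BL/6 mice that had been operated on at 8 weeks of age, were infected with tetracycline-inducible lentiviruses for *Mef2c*, *Gata4* and *Tbx5* on 1 construct, for *Myocd* and *Sall4*, and for eGFP (labelled MGTMyoS overexpression). Every group carried all of these factors. For the *in vivo* samples the infected cells were injected into the left ventricle of C57BL/6 mice straight after coronary ligation, and the hosts received doxycycline in drinking water and daily tacrolimus, mycophenolate mofetil and methylprednisolone, whereas the *in vitro* samples stayed in culture with doxycycline. By the study's account, the *in vitro* cells were a part of the infected cells, kept back for culture at the same time. The culture medium the study describes for reprogramming also held SB431542 and baricitinib, and whether these *in vitro* samples were kept in it is not given in the sources used here. eGFP+ cells were sorted at 1 week and at 2 weeks, with 2 libraries in each of the 4 groups. The sort selects cells by an inducible transgene, the starting cells were not a single cell type, and how many hearts or wells a library pooled is not given in the sources used here. The p-values below therefore measure the spread between libraries, which may be technical.

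Between 12304242 and 14546904 fragments per library fell on genes, so that 1 fragment on a gene of 1 kb was worth an FPKM of 0.0650 to 0.0905. Replicates differed by more than counting error, at a chi-square of 4.25 to 9.22 for each gene, highest in the *in vivo* 2-week libraries. In bulk samples such as these, fewer cells of a type and less RNA per cell cannot be told apart.

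The gene copies resemble each other, and their sequences show how far fragments can be told apart. The first 120 coding bases are shown for *Mcpt4*, *Mcpt2*, *Mcpt1* and *Mcpt9*, and *Cma2* was not compared over these bases. This stretch was chosen because it holds the signal peptide and the start of the mature protease. It was read from the GENCODE vM21 transcripts of GRCm38 and runs 5′ to 3′ on the coding strand, with an intron between its ends in the genome, at chr14:56061660-56062274 (minus) for *Mcpt4*, chr14:56042154-56042765 (plus) for *Mcpt2*, chr14:56017999-56018625 (plus) for *Mcpt1* and chr14:56028650-56029268 (minus) for *Mcpt9*. Capitals mark bases that differ from *Mcpt4*.
Mcpt4: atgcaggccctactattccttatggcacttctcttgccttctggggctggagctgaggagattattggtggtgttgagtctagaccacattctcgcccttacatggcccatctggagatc
Mcpt2: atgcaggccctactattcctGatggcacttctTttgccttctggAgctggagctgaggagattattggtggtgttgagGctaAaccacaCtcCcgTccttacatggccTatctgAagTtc
Mcpt1: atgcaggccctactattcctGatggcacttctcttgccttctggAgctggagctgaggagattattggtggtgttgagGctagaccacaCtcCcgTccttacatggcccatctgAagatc
Mcpt9: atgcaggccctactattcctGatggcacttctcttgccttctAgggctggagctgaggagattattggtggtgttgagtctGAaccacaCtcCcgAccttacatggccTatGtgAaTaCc
*Mcpt2* differed from *Mcpt4* at 11 of these bases, *Mcpt1* at 7 and *Mcpt9* at 12. Over the whole coding sequence, the identity to *Mcpt4* was 87.0% for *Mcpt1*, 84.0% for *Mcpt9*, 83.5% for *Cma2* and 80.4% for *Mcpt2*. It was 71.3% for *Cma1* and 63.2% to 64.6% for *Mcpt8*, *Ctsg* and *Gzmb*. The longest run shared without a mismatch by a transcript and *Mcpt4* was 33 bases for *Mcpt2*, 46 for *Mcpt1*, 56 for *Mcpt9* and 100 for *Cma2*. No 50-base window of *Mcpt2* occurred in *Mcpt4*, whereas 58 of the 898 such windows of *Cma2* and 7 of the 1951 of *Mcpt9* did, so low values of *Cma2* and *Mcpt9* are uncertain.

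*Mcpt4* (chr14:56059629-56062313, minus strand, 1108 bases of exon sequence) had the highest FPKM of the family in every library. In *in vivo* 2-week replicate 1 its 14 fragments stood beside 13 of *Cma1*, an order within counting error. Its FPKM was 6.47 and 5.82 in the *in vivo* samples at 1 week, and 1.12 and 1.14 in those at 2 weeks. In the *in vitro* samples it was 64.1 and 61.5 at 1 week, and 146.3 and 146.2 at 2 weeks. All *in vitro* values lay above all *in vivo* values, as its selection for high culture values made likely, and no value of one group overlapped another group. The share of all genes that separate in this way was not counted, and with 2 libraries per group nothing more is read from it. These levels rested on 84 and 84, then 14 and 14 fragments *in vivo*, and on 1093 and 1017, then 2242 and 2203 fragments *in vitro*.

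The mean FPKM of *Mcpt4* was 6.15 ± 0.464 (SD, n = 2) *in vivo* against 62.8 ± 1.86 (SD, n = 2) *in vitro* at 1 week, a ratio of 10.2. At 2 weeks the means were 1.13 ± 0.0174 and 146.3 ± 0.0596 (SD, n = 2 each), a ratio of 129. The distance between heart and culture thus came from both sides: the culture mean at 2 weeks was 2.33 times that at 1 week, and the mean in the heart was 0.184 times that at 1 week. On the log2(FPKM + 0.1) scale the difference, *in vivo* minus *in vitro*, was -3.33 at 1 week and -6.89 at 2 weeks. Among all genes of the table *Mcpt4* ranked 654th and 657th by FPKM in the *in vitro* libraries at 1 week and 270th and 286th at 2 weeks. In the *in vivo* libraries it ranked between 6276th and 12301st.

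*Mcpt2* (chr14:56042041-56044642, plus strand), a chymase relative known from mucosal mast cells, was the other member with more than traces of expression, and it too was found in culture. Its FPKM was 0 and 0.0723 in the *in vivo* samples at 1 week and 0.0835 and 0 at 2 weeks, which is 0 or 1 fragment per library. *In vitro* it was 4.16 and 3.79 at 1 week, from 68 and 60 fragments, and 10.6 and 11.8 at 2 weeks, from 155 and 170 fragments. The heart and culture libraries did not overlap at either week, and the share of all genes without overlap was not counted.

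Against a floor of 3 fragments per library *in vivo*, *Mcpt2* was at least 17.3-fold higher in culture at the first time and at least 44.1-fold higher at 2 weeks. Its fitted log2 fold change, *in vivo* against *in vitro*, was -4.95 ± 0.37 (SE) at 1 week, with an adjusted p of 8.2e-05 (limma, Benjamini-Hochberg over all tested genes). At 2 weeks it was -6.38 ± 0.37 (SE), with an adjusted p of 2.1e-05. *Mcpt2* reached the level for testing through the *in vitro* libraries alone, so it had to lie lower *in vivo*, and these p-values describe the size of the gap against the spread between libraries and are no independent support for its direction. The fitted sizes depend on the constant of 0.1 added to each FPKM, since *Mcpt2* was at or near 0 *in vivo*.

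*Mcpt2* was the only one of the 8 other members that could be called, and it was called lower *in vivo* at both weeks. A lower call was the only one open to it, and nothing is read from it about the members as a set. A call here needs both an adjusted p under 0.01 and a log2 fold change beyond 1 in either direction. Over all tested genes 5.07% (796 genes) were called lower *in vivo* at 1 week and 8.05% (1265 genes) at 2 weeks. Genes called higher made up 7.79% (1224) and 9.02% (1417). With the scaling between libraries taken out of the FPKM, which sets the median over all tested genes to -0.34 and -0.32 on the log2 scale, the lower calls numbered 1558 and 2087 and the higher calls 906 and 1032. *Mcpt2* was lower *in vivo* under both scalings.

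**Figure D1:**
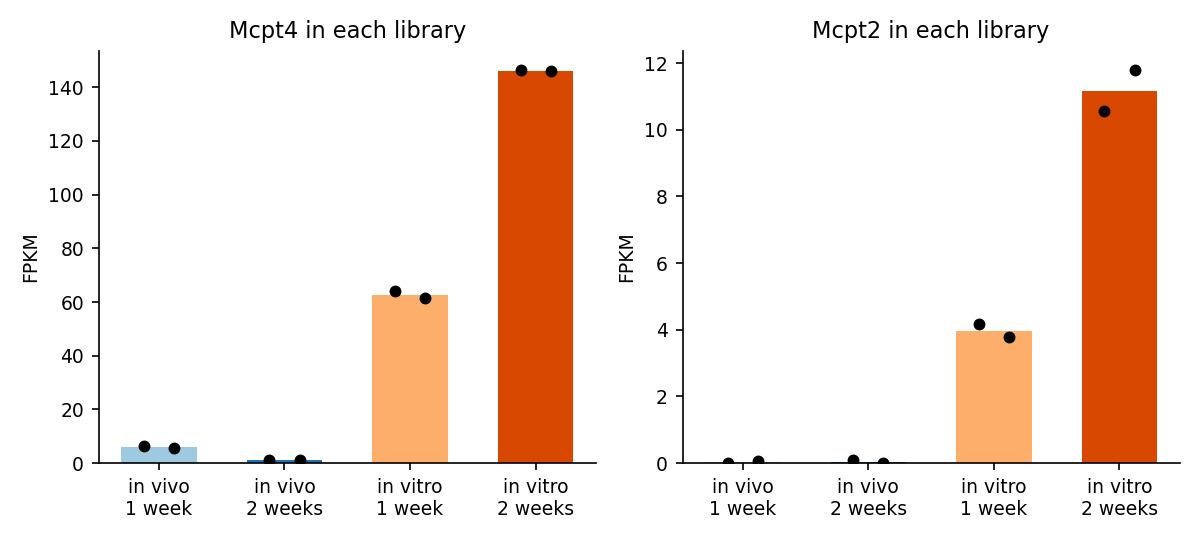
FPKM of *Mcpt4* (left) and *Mcpt2* (right) in the 4 groups, as bars for the mean of 2 libraries and points for each library, with a separate linear axis for each gene. Both genes had their highest values in the *in vitro* samples at 2 weeks, near 146 for *Mcpt4* and between 10.6 and 11.8 for *Mcpt2*, while *Mcpt2* had at most 0.0835 *in vivo*.

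Between the weeks, *Mcpt2* had 2.81 times as much FPKM in culture at 2 weeks as at 1 week, beside 2.33 times for *Mcpt4*. The fitted log2 fold change of *Mcpt2* over this time was 1.47 ± 0.37 (SE), with an adjusted p of 0.030 by limma, which missed the threshold of 0.01. By limma voom on the recovered fragments, which weighs each value by its count, the log2 fold change was 1.48 and the adjusted p 0.00016. *In vivo* the log2 fold change of *Mcpt2* between the weeks was 0.05 (adjusted p = 0.96, limma), at a depth that gave 0 or 1 fragment per library. Over all tested genes, 2.76% were called higher and 1.05% lower at 2 weeks than at 1 week *in vitro*, and 1.23% higher and 0.949% lower *in vivo*.

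The difference between the weeks of the *in vivo* against *in vitro* contrast was -1.42 on the log2 scale for *Mcpt2* (adjusted p = 0.14, limma), and 1.73% of the tested genes were called in this comparison. The same quantity was -3.56 for *Mcpt4*, as a description. The step of *Mcpt4* *in vivo*, 84 fragments against 14, had no counterpart that could be measured for *Mcpt2*, which was already under its floor at 1 week.

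In culture both genes kept a similar proportion to each other. *Mcpt2* gave 5.86% (95% exact interval 4.58 to 7.37) and 5.57% (4.28 to 7.11) of the fragments of both genes together in the *in vitro* libraries at 1 week. At 2 weeks it gave 6.47% (5.51 to 7.53) and 7.16% (6.16 to 8.28). The 4 intervals overlapped. In the *in vivo* libraries it gave 0 of 84, 1 of 85, 1 of 15 and 0 of 14 fragments, with upper bounds of 4.30% and 6.38% at 1 week and of 31.9% and 23.2% at 2 weeks. The proportion at 2 weeks *in vivo* was thus not measurable at this depth, while the bound of the first library at 1 week lay below the lower bound of 3 of the 4 *in vitro* libraries and that of the second below none of them. The intervals take in counting error alone, because PCR copies are not independent molecules.

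The other chymases of the cluster were at or near 0. *Mcpt1* (chr14:56017971-56020384, plus strand), the coding sequence closest to *Mcpt4* in this family, had 1 and 3 fragments *in vivo* at 1 week and none in the other 6 libraries, an FPKM of at most 0.227. *Mcpt9* (chr14:56026864-56030495, minus strand) had 1 and 2 fragments *in vitro* at 1 week only. *Cma2* (chr14:55950980-55974031, plus strand) had 5 and 6 fragments *in vitro* at 1 week and 5 and 0 at 2 weeks, an FPKM of up to 0.366, and none *in vivo*. The *Cma2* fragments stand beside 1017 to 2242 *Mcpt4* fragments in the same libraries, and *Cma2* shares a 100-base run with *Mcpt4*. *Mcpt-ps1*, a pseudogene on the opposite strand that overlaps *Cma2*, had 3 fragments in 1 of these libraries.

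*Cma1* (chr14:55941451-55944675, minus strand), the mouse counterpart of human chymase, was read mainly in the heart. Its FPKM was 1.06 and 0.166 *in vivo* at 2 weeks, from 13 and 2 fragments, 0.0783 and 0 *in vivo* at 1 week, 0.0596 and 0 *in vitro* at 1 week, and 0 in both *in vitro* libraries at 2 weeks. The value therefore came almost wholly from 1 library, and the gene was below the level for testing. At 2 weeks the mean *in vivo* was at least 3.05-fold higher than the *in vitro* floor of 3 fragments. The same library, *in vivo* 2-week replicate 1, also had the highest levels of *Cpa3* (FPKM 0.584) and *Tpsb2* (0.738), a carboxypeptidase and a tryptase of mast cell granules, against 0.0597 and 0.0838 in its replicate. It had the highest *S100a9* as well, a calcium-binding protein of neutrophils, at 3.39 against 0.347. *Cpa3* and *Tpsb2* are 2 of the 12 mast cell defining genes described below. The summed FPKM of all 12 was alike in both *in vivo* 2-week libraries, at 4.16 to 4.25. The part of *Cpa3*, *Tpsb2* and *S100a9* in the *Cma1* value was not tested.

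*Mcpt8* (chr14:56082166-56085273, minus strand) had 1 fragment in a single *in vitro* library, and *Mir6949*, a microRNA gene inside it, counted the same number there. *Ctsg* (chr14:56099881-56102574, minus strand), the gene of cathepsin G, was listed at 0 in all 8 libraries. *Gzmb* (chr14:56258838-56262260, minus strand), the gene of granzyme B, was found *in vivo* only, with 8 and 13 fragments at 1 week and 2 and 0 at 2 weeks, an FPKM of 0.476, 0.695, 0.123 and 0. At 1 week its mean *in vivo* was at least 4.25-fold higher than the *in vitro* floor.

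**Figure D2:**
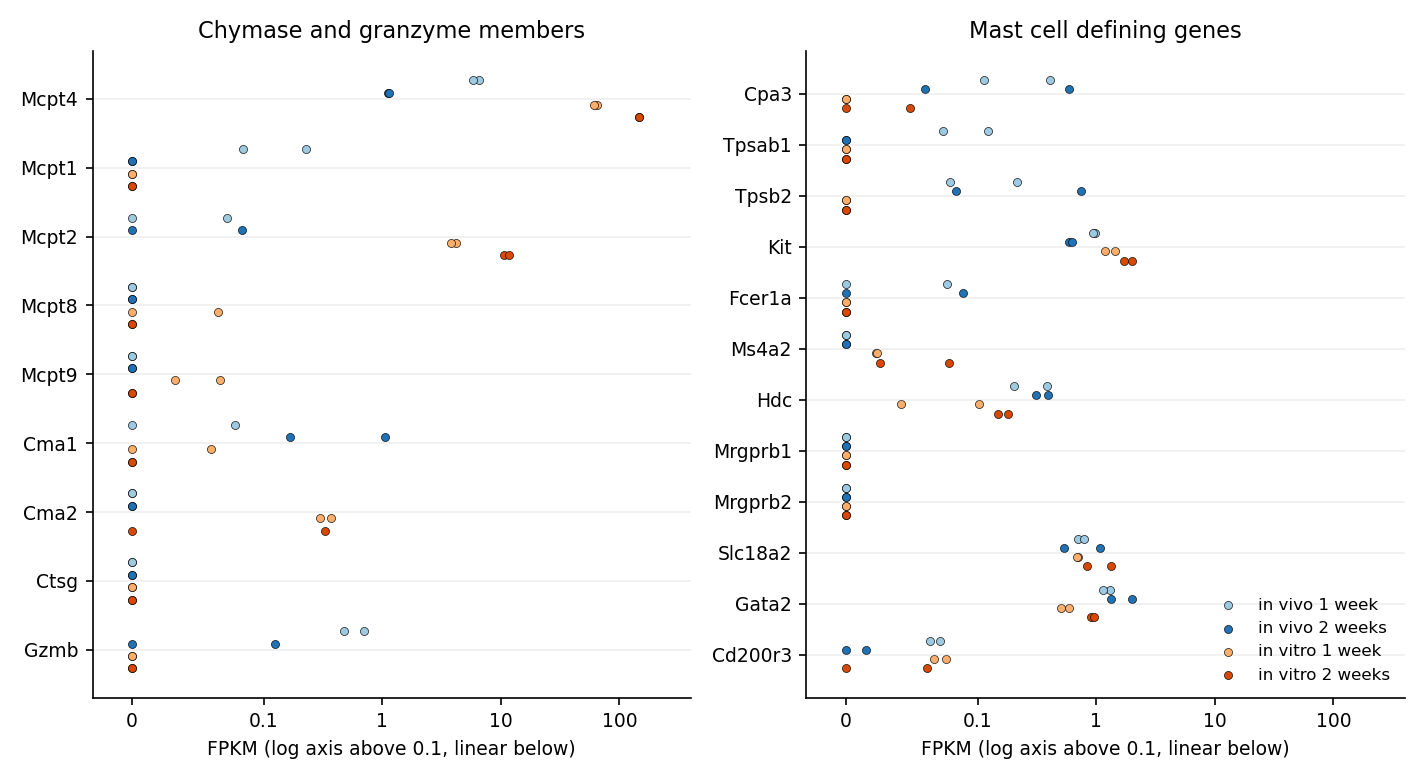
FPKM of the 9 members (left) and of 12 genes that define mast cells (right), with 1 point per library, coloured by group, on an axis that is logarithmic above 0.1 and linear below it. *Mcpt4* and *Mcpt2* stand apart at the right among the *in vitro* libraries, while no mast cell defining gene exceeded an FPKM of 2.02.

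The stretch from *Cma1* to *Gzmb* spans 320.8 kb and holds 26 genes of the table, 15 of them protein-coding. Of the 26, 10 had no fragment in any library and 5 reached the level for testing. *In vitro*, *Mcpt4* gave 92.5% and 93.0% of all fragments of the stretch at 1 week and 93.3% and 92.8% at 2 weeks. *In vivo* it gave 63.6% and 64.6% at 1 week, of 132 and 130 fragments, and 35.9% and 70.0% at 2 weeks, of 39 and 20 fragments.

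The granzyme genes beyond *Ctsg* had the opposite distribution. *Gzmc*, 172 kb from the *Mcpt4* start, had an FPKM of 1.62 and 0.944 *in vivo* at 1 week and 0.495 and 0.203 at 2 weeks, and *Gzme*, 58.3 kb away, had 1.21 and 0.838 at 1 week. Neither had a fragment in any *in vitro* library. At 1 week both were called higher *in vivo*, *Gzmc* with a log2 fold change of 3.75 ± 0.56 (SE, adjusted p = 0.0020) and *Gzme* with 3.47 ± 0.64 (SE, adjusted p = 0.0047, limma). Both reached the level for testing through the *in vivo* libraries of that week alone, so a higher call was the only one open to them. These calls rest on 10 to 17 fragments per library, and each call was lost when *in vivo* replicate 1 or either *in vitro* library of that week was left out, that of *Gzme* also without *in vivo* replicate 2 (adjusted p up to 0.015 for *Gzmc* and 0.025 for *Gzme* by limma over all alternatives). At 2 weeks *Gzmc* did not pass (log2 fold change 2.09, adjusted p = 0.019), and *Gzme* was at 0 throughout. Of the other genes of the granzyme list, *Gzmd*, *Gzmg* and *Gzmn* had 1 to 3 fragments in total, and *Gzmf* had none.

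On either side of the stretch the levels of heart and culture lay closer together. On the side of *Cma1*, the FPKM of *Khnyn* was 5.85 to 6.66 *in vivo* and 3.80 to 4.59 *in vitro*, that of *Sdr39u1* was 1.06 to 2.08 in all libraries, and that of *Cbln3* was at most 0.166. On the side of *Gzmb*, *Cenpj* had 1.29 to 2.31 *in vivo* and 1.91 to 2.70 *in vitro*, while *Rnf17* and *Atp12a* stayed below 0.5. Of the genes between the members, the processed pseudogene *Gm5801* had an FPKM of 0 to 0.773, highest *in vitro* at 1 week.

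**Figure D3:**
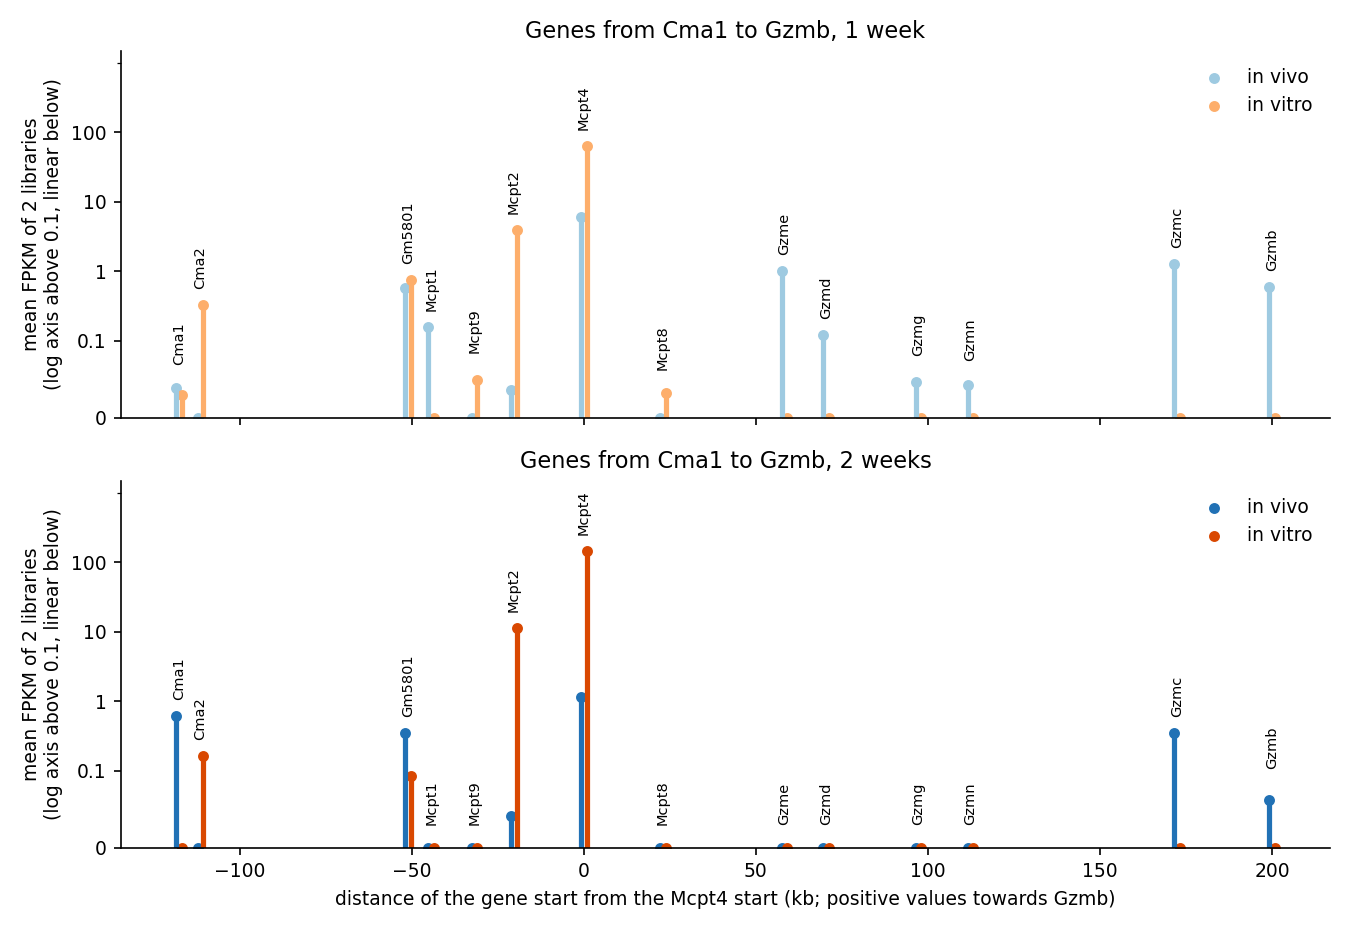
Mean FPKM of 2 libraries for each gene between *Cma1* and *Gzmb* with at least 1 fragment, at 1 week (top) and 2 weeks (bottom), against the distance of its start from the *Mcpt4* start in kb, on an axis that is logarithmic above 0.1 and linear below it. *Mcpt-ps1* and *Mir6949*, which overlap a member, are left out. The *in vitro* bars stand at *Mcpt4* and *Mcpt2*, and the *in vivo* bars at the granzyme end stand at 1 week for *Gzme*, *Gzmc* and *Gzmb*.

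The upstream sequences are shown for *Mcpt4* and *Mcpt1*, because these 2 neighbours are nearly alike there and were far apart in level. They are the 250 bases before the start in RefSeq (GRCm38.p6), 5′ to 3′ on the gene's strand, for *Mcpt4* chr14:56062311-56062560 (minus) and for *Mcpt1* chr14:56017714-56017963 (plus). Capitals mark the GATA motif TGATAA.
Mcpt4: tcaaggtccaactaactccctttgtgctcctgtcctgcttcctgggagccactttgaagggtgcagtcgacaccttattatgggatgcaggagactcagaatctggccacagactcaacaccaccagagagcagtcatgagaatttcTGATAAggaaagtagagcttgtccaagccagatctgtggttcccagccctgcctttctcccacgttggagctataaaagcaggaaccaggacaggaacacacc
Mcpt1: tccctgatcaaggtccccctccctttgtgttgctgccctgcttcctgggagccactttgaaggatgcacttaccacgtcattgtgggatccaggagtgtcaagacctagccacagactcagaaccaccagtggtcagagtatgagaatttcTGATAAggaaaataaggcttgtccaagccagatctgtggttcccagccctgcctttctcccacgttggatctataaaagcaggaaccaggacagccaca
Aligned with each other they were 86.4% identical, with a shared run of 53 bases. The upstream sequence of *Mcpt1* was the most similar to that of *Mcpt4* among the 12 compared, the others having 52.9% to 69.9%. TGATAA began 103 bases before the *Mcpt4* start and 99 before the *Mcpt1* start. A GATA motif (TGATAA or AGATAA, or either of them with G as the last letter, on either strand) was present in 26.5% of the 32851 mouse promoters of the same length. The T-box core GGTGTG occurred in the *Mcpt4* sequence as its reverse complement CACACC, at the end next to the start. It was absent from both strands of the *Mcpt1* sequence, and 16.3% of all promoters hold it on either strand. CACGTG (present in 6.02% of all promoters) was absent from both sequences, and so were CATGTG (12.3%), a MEF2 motif (2.92%) and a CArG box (1.47%). Despite this likeness, the FPKM of *Mcpt1* was 0 in all 4 *in vitro* libraries, where that of *Mcpt4* was 61.5 to 146.3. *Mcpt2* and *Cma2* were not among the promoters matched.

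Mast cell genes were examined next, since chymases are named for these cells. Of 12 mast cell defining genes, 3 reached the level for testing (*Kit*, *Slc18a2* and *Gata2*), and the summed FPKM of the 12 was 3.56 to 4.07 *in vivo* and 2.52 to 2.94 *in vitro* at 1 week. At 2 weeks it was 4.16 to 4.25 *in vivo* and 3.97 to 4.33 *in vitro*, so that heart and culture overlapped there. *In vitro* most of this sum came from *Kit*, *Slc18a2* and *Gata2*, and *Gata2* is also in the basophil list. The sum is therefore no measure of mast cell content. *Mrgprb1* and *Mrgprb2*, receptors of connective tissue mast cells, were at 0 in every library. In the *in vitro* libraries, *Tpsab1* and *Tpsb2* (tryptases) and *Fcer1a* (the IgE receptor chain) were at 0, and *Cpa3* was at 0 in 3 libraries and at 0.0485 in the other. *Ms4a2*, another chain of the IgE receptor, had an FPKM of 0.0231 to 0.0784 *in vitro* and 0 *in vivo*. *Hdc*, which makes histamine, had 0.0419 to 0.181 *in vitro* and 0.201 to 0.388 *in vivo*, and *Cd200r3* had at most 0.0760 anywhere.

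Of the 3 tested markers, *Kit*, the receptor for stem cell factor, was called lower *in vivo* at 2 weeks, with FPKM of 0.587 and 0.620 against 2.02 and 1.71 *in vitro* (log2 fold change -1.48 ± 0.19 SE, adjusted p = 0.00071, limma), a call that was lost with a pseudocount of 1 and with the libraries of that week alone. At 1 week it did not pass (-0.43, adjusted p = 0.11). *Slc18a2*, a vesicular monoamine transporter, had 0.536 to 1.33 in all libraries and did not pass at either week. *Gata2*, a transcription factor of mast cells, had 1.14 to 1.996 *in vivo* and 0.509 to 0.954 *in vitro*, with adjusted p = 0.012 at 1 week and 0.035 at 2 weeks. The median log2 fold change of the 3 was 0.08 at 1 week and -0.43 at 2 weeks, beside -0.01 and -0.0034 over all tested genes.

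Of the 14 broader mast cell genes, many of which macrophages also express, 11 were tested, with 1 lower call *in vivo* at 1 week, and 3 lower calls and 1 higher at the later time. *Hpgds*, a prostaglandin D synthase, was lower at both weeks (log2 fold change -1.10 and -2.42, adjusted p = 0.0025 and 5.3e-05, limma). Its call at 1 week was lost in some of the alternative fits. *Fcer1g* and *Ltc4s* were lower at 2 weeks. Basophil genes gave no call, with 2 of 7 tested (an unadjusted p under 0.05 for 2 at 1 week and 1 at 2 weeks, and 1 and 0 calls by limma voom). The basophil protease gene *Prss34* was at 0 everywhere. Of 11 neutrophil granule genes 3 were tested, with 1 called higher *in vivo* at 2 weeks. This was *Prtn3* (log2 fold change 2.17, adjusted p = 0.0096, limma), a call that was lost in some of the alternative fits. The summed FPKM of the 11 was 2.22 to 6.84 *in vivo* and 0.667 to 1.30 *in vitro*. Of 17 cytotoxic lymphocyte genes 3 were tested, without a call at either week by limma (unadjusted p under 0.05 for 2 at each week, and 2 and 1 calls by limma voom), and their summed FPKM was 2.51 to 7.86 *in vivo* and 1.82 to 2.001 *in vitro*. *Gzmb* and its neighbours were thus seen in the libraries with the higher lymphocyte sums, and the part of such cells was not tested. Of 6 plasmacytoid dendritic cell genes, another lineage with granzyme B, 4 were tested, and 2 were called higher *in vivo* at 1 week, *Irf7* (log2 fold change 5.19) and *Bst2* (1.37), and 1 at 2 weeks, *Irf7* (3.63). Both are known as interferon-induced genes that many cell types express.

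Genes of the storage machinery were expressed in both heart and culture. All 9 genes for granule storage and maturation were tested, among them *Srgn* (serglycin, which holds proteases in granules), *Ctsc* (which activates granule proteases) and the heparin-modifying *Ndst2*. None was called at either week by limma or by limma voom, although 5 at 1 week and 7 at 2 weeks had an unadjusted p under 0.05, and the median log2 fold change was -0.08 and -0.42. *Srgn* had an FPKM of 24.4 to 36.1 *in vivo* and 20.8 to 48.5 *in vitro*.

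Genes of the angiotensin system and of other chymase substrates moved in both directions. Of 20, 15 were tested, with 8 higher calls and 2 lower calls *in vivo* at 1 week, and 7 and 2 at the later time. The median log2 fold change was 1.33 and 0.76. Over all tested genes, 7.79% were called higher and 5.07% lower at 1 week, and 9.02% and 8.05% at 2 weeks. *Ace*, the angiotensin-converting enzyme that makes the same angiotensin II as chymases do, had an FPKM of 139 and 148 *in vivo* at 1 week and 290 and 262 at 2 weeks, against 5.93 and 6.05, then 7.66 and 7.76 *in vitro*. Its libraries did not overlap between heart and culture, and the share of all genes without overlap was not counted. Its means differed 23.9-fold and 35.8-fold (log2 fold change 4.56 ± 0.07 and 5.14 ± 0.07 SE, adjusted p = 1.3e-07 and 7.7e-08, limma). *Ace* was thus high where *Mcpt4*, chosen for its high culture values, was low, and a relation between these genes was not tested.

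*Ltbp1*, which anchors latent TGF-beta in matrix, had log2 fold changes of 3.04 and 3.003, and *Timp1*, an inhibitor of matrix metalloproteinases, of 1.42 and 2.83. *Fn1* (fibronectin), *Mmp2* (a gelatinase) and *Il33* (an alarmin that acts on mast cells) were also higher *in vivo* at both weeks. Lower *in vivo* at 2 weeks were *Tslp*, a cytokine (log2 fold change -3.04 ± 0.32 SE, adjusted p = 0.00031, limma), and *Agtr1a*, the main angiotensin II receptor (-1.74 ± 0.19 SE, adjusted p = 0.00035). The call of *Agtr1a* at 2 weeks was lost in some of the alternative fits. *Agt*, the precursor of angiotensin, had an FPKM of 0.893 to 2.71 and did not pass at either week. *Kitl*, the ligand of *Kit*, was lower *in vivo* at 1 week (-1.04, adjusted p = 0.00023) and had -0.65 at 2 weeks.

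Serine protease inhibitors had calls in both directions, with more of them higher in the heart under the scaling held in the FPKM. Of 20, 11 were tested, with 7 higher calls and 2 lower calls *in vivo* at 1 week, 4 and 1 at the later time, and a median log2 fold change of 1.18 and 0.40. Over all tested genes, too, higher calls were more frequent, at 7.79% against 5.07% lower at 1 week and 9.02% against 8.05% at 2 weeks. *Serpina3n*, whose human counterpart inhibits chymase and cathepsin G, had an FPKM of 1232 to 1419 *in vivo* against 83.6 to 123 *in vitro*, 10.9-fold and 14.1-fold apart in the means (log2 fold change 3.45 and 3.82, ± 0.11 SE each, adjusted p = 2.0e-06 and 1.1e-06, limma). *Slpi*, an inhibitor of leukocyte proteases, had log2 fold changes of 1.55 and 3.19, and *Serpina3f* was called higher at 1 week (2.84) and had 0.12 at 2 weeks. Both calls at 1 week were lost with the libraries of that week alone, and that of *Slpi* also without *in vitro* replicate 1. *Serpinb9*, an inhibitor of granzyme B, and *Serpine2* were higher at both weeks by 1.02 to 1.45, while *Serpinb6b* was lower at both (-1.40 and -2.19). With the scaling between libraries taken out, 6 of this list were called at 1 week in place of 9, and 3 at 2 weeks in place of 5. Over all tested genes the lower calls then outnumbered the higher calls, at 1558 to 906 and 2087 to 1032.

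**Figure D4:**
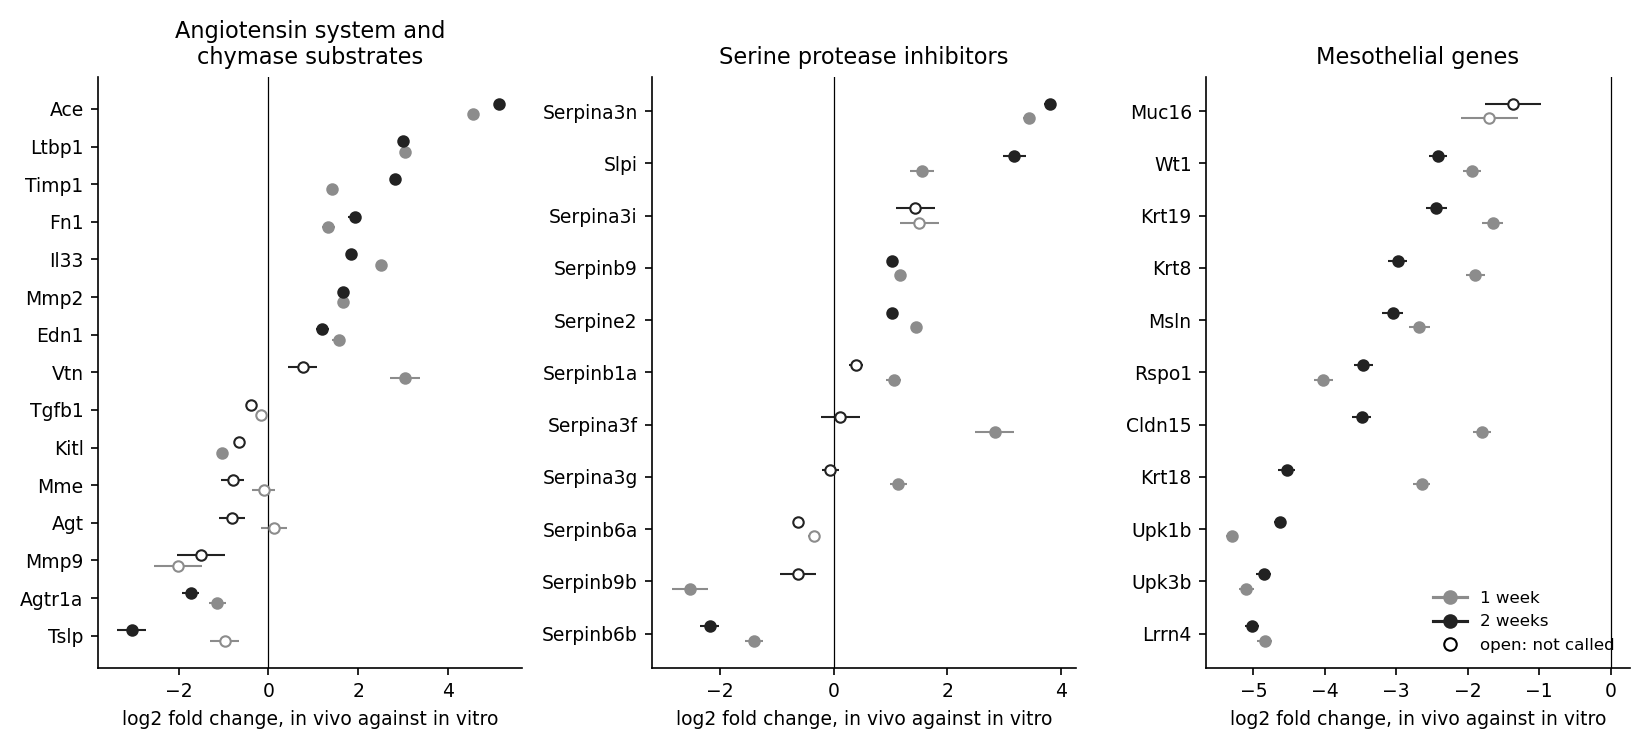
Log2 fold change, *in vivo* against *in vitro*, with its standard error for the tested genes of 3 lists, at 1 week (grey) and 2 weeks (black), where filled points passed the thresholds and open points did not. *Ace* and *Serpina3n* lie at the upper end of their lists, and all mesothelial genes lie below 0. *Muc16* (open points) reached the level for testing through the *in vitro* libraries at 2 weeks alone, so at 2 weeks it could only lie below 0.

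Markers of mesothelium, the outer lining of the heart, were, like *Mcpt4*, higher in culture, and so were most of the cardiomyocyte genes given below. All 11 mesothelial genes were tested, 10 were called lower *in vivo* at each week, and *Muc16* did not pass. Their summed FPKM was 22.8 to 23.9 *in vivo* at 1 week and 44.3 to 45.1 at 2 weeks, against 300.0 to 313 and 656 to 667 *in vitro*, and no marker of the list was at 0 throughout. *Upk1b* and *Upk3b*, uroplakins of mesothelial cells, stood at -5.30 and -5.10 on the log2 scale at 1 week and at -4.62 and -4.86 at the later time, and *Lrrn4* at -4.84 and -5.02. *Wt1*, a transcription factor of mesothelium and epicardium, had -1.94 and -2.42. Between the weeks, however, the paths parted in the heart: 5 mesothelial genes were called higher at 2 weeks *in vivo*, among them *Upk1b* (log2 fold change 1.27, adjusted p = 0.00069, limma), where the log2 difference of *Mcpt4* between the weeks was -2.34. In culture 6 of the 11 were called higher at 2 weeks, with a median log2 fold change of 1.19 beside 1.22 for *Mcpt4*. The part of mesothelial cells in the *Mcpt4* level was not tested.

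The cardiomyocyte genes were also higher in culture, with 9 of 11 tested called lower *in vivo* at 1 week and 10 at 2 weeks, and with a summed FPKM of 18.5 to 50.9 *in vivo* and 204 to 1329 *in vitro*. *Pln*, a regulator of the calcium pump, was the exception, higher *in vivo* at both weeks. Among the genes called lower, *Myh6* had an FPKM of at most 0.363 *in vivo*. It reached the level for testing through the *in vitro* libraries alone, so a lower call was the only one open to it. Of 12 macrophage genes, which were abundant in all libraries (summed FPKM 2009 to 3150 *in vivo* and 4951 to 6073 *in vitro*), there was 1 call in each direction at 1 week, and 6 lower calls *in vivo* at the later time. Of 8 endothelial genes 7 and then 4 were called higher *in vivo*, of 10 fibroblast genes 6 and 6 higher, and of 6 smooth muscle genes 1 and 1 lower. Of the 5 reprogramming factors, whose transgene and own transcripts are not separated in these counts, 1 was called lower *in vivo* at 1 week and 2 at 2 weeks. The shares over all tested genes were 5.07% lower and 7.79% higher at 1 week, and 8.05% and 9.02% at 2 weeks. Nothing is read from the single calls in these small lists. The part of any of these cell types or factors in the *Mcpt4* level was not tested.

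Many genes had a pattern like that of *Mcpt4* over the 8 libraries. Of 13104 other tested protein-coding genes, 456 had a Pearson r over 0.95 with *Mcpt4* on the log2(FPKM + 0.1) scale, which is a description, since the libraries fall into 4 groups of 2 and share their scaling. The 10 with the highest r were *Mum1l1*, *Maged2*, *Tec*, *Zfp655*, *Snn*, *Aif1l*, *Slc26a11*, *Ankrd1*, *Cenpa* and *Nedd4l*, with r from 0.991 to 0.995. Their differences were smaller than those of *Mcpt4*. *Aif1l*, an actin-binding protein, had mean FPKM of 0.889 and 0.367 *in vivo* and 5.05 and 8.52 *in vitro*, and *Ankrd1*, a cardiac stress protein, had 26.7 and 14.1 *in vivo* and 110 and 129 *in vitro*. The ratio of *in vitro* to *in vivo* at 2 weeks was 23.2 for *Aif1l*, 9.19 for *Ankrd1* and 1.75 to 9.98 for the other 8. *Mcpt2* ranked 528th with r of 0.945, followed by *Myh6*, the cardiac alpha myosin gene, at 680th (0.935), and among mesothelial genes r ran from 0.657 (*Krt19*) to 0.935 (*Krt18*).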

How the data were processed

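Total RNA of FACS-isolated eGFP+ cells was made into 8 mRNA libraries. The submitters' processing notes name CASAVA, HISAT2 2.0.5 and mm10, and the counting tool is not given in the sources used here. The authors deposited FPKM for 54532 genes in 1 table, with 0 sample columns left unmatched. Of these, 98.3% had the same coordinates as GENCODE vM21 on GRCm38. Multiplied by gene length, 100% of the values above 0 were whole multiples of a library's step (tolerance 0.1 fragments), which gave fragments per gene. The library size behind the FPKM was 0.863 to 0.915 times the fragments *in vivo* and 1.09 to 1.15 times *in vitro*, so the FPKM hold a scaling between libraries.

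Genes that reached 0.5 FPKM in 2 or more libraries were compared on log2(FPKM + 0.1) with limma 3.58.1 (R 4.3.3), with all 8 libraries in 4 groups, a variance trend and Benjamini-Hochberg adjustment. A call needed both an adjusted p under 0.01 and a log2 fold change beyond 1. Fold changes on this scale understate those of low genes. The floor was 3 fragments per library. The fit was also run on simulated data with the same spread set for all genes, as a check of the code, and nothing about these data is read from it. The members, the 17 gene lists and the tests were chosen with earlier results of these data known. Named genes were the 9 members, the genes between them and 3 protein-coding genes on each side, the 10 genes most like *Mcpt4*, the mast cell defining markers and up to 6 called genes with large changes per list, plus genes a result turned on. Sequences came from GENCODE vM21 and RefSeq, and protein sequences were not analysed here. In the lists, 1 gene is not reported here, and their counts and medians leave it out. Alternatives were pseudocounts of 0.01 and 1, no filter, FPKM of at least 1, no scaling, the replicate number as a block, limma voom on recovered fragments, libraries of 1 week only and each library left out in turn. Values were prepared with Python 3.11.15, pandas 2.3.3 and scipy 1.17.1.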

Additional observations from a re-analysis of the deposited data

Results flagged for a closer look

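For 10 listed genes the *in vivo* against *in vitro* difference itself differed between the weeks by limma's interaction contrast. The contrast at 2 weeks minus that at 1 week passed the thresholds for them, beside 271 of all 15708 tested genes (1.73%). Among 8 tested endothelial genes it was -2.23 on the log2 scale for *Cdh5* (adjusted p = 0.0036, limma), -1.83 for *Kdr* (0.0062) and -1.72 for *Pecam1* (0.0068). Among 11 tested mesothelial genes it was -1.89 for *Krt18* (adjusted p = 0.0034, limma) and -1.69 for *Cldn15* (0.0047). Among 11 tested cardiomyocyte genes it was -2.76 for *Tnni3* (adjusted p = 0.0081, limma) and -1.07 for *Myl4* (0.0064). For *Cnn1*, 1 of 6 tested smooth muscle genes, it was -1.004 (adjusted p = 0.0085, limma). For *Ctsh*, a lysosomal protease that can activate granule proteases and 1 of 9 tested storage genes, it was -1.25 (adjusted p = 0.0037, limma). For *Timp1*, 1 of 15 tested angiotensin and substrate genes, it was 1.40 (adjusted p = 0.0053, limma). *Myl4* and *Tnni3* were each called in 1 of the 8 fits that left out a library and the other 8 genes in 0 of them. For *Mcpt2* the same contrast did not pass.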

How the results depend on the processing

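*Mcpt2* stayed called lower *in vivo* at both weeks under every alternative that was run (its direction follows from the libraries through which it reached the level for testing), with an adjusted p of up to 0.0045 at 1 week and up to 0.0026 at 2 weeks, and no single gene called at either week changed direction. The log2 difference of *Mcpt4* was -3.16 at 1 week and -6.11 at 2 weeks with a pseudocount of 1, -7.00 at 2 weeks with a pseudocount of 0.01, -3.67 and -7.21 without scaling, and -6.96 at 2 weeks by limma voom. The log2 fold change of *Mcpt2* in culture between the weeks passed the thresholds with a pseudocount of 1 (1.29, adjusted p = 0.00049) and by limma voom (1.48), with adjusted p from 0.00016 to 0.43 over all alternatives. Mast cell defining genes gave 0 calls at 2 weeks with a pseudocount of 1 or with libraries of that week only, and 1 at 1 week by limma voom. Serine protease inhibitors gave 3 at 2 weeks without scaling. The count for the difference between the weeks was 271, 72 without a filter and 473 by limma voom. It was 27 in the fit with a replicate block, and the block moved no other count of calls by over 1.5 times. Equal numbers were not treated as pairs, and deviations of same-numbered heart and culture libraries correlated at -0.020 and -0.022 within the weeks. With 2 libraries per group this cannot exclude a shared batch of cells, and pairs across the weeks were not examined.

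With each library left out in turn, leaving an arm with 1 library assumed to vary like the others, the calls were 1448 to 2044 at 1 week, 2011 to 2548 at 2 weeks, 198 to 555 between weeks *in vitro* (599 with all), 11 to 221 *in vivo* (342 with all) and 2 to 86 for the difference between weeks. Each *in vitro* library left out brought the *in vitro* count to 235 or fewer, and every library left out lowered the last 2 counts by over 1.5 times. The count of 11 was without *in vivo* 1-week replicate 1, and the count of 2 arose in 4 of the 8 fits. The call of *Gzme* at 1 week was also lost with the block (adjusted p = 0.011) and with a pseudocount of 0.01 (0.025). The log2 difference ran from -3.41 to -3.26 and from -6.91 to -6.88 for *Mcpt4*, and from -5.35 to -4.56 and from -6.81 to -5.94 for *Mcpt2* (1.39 to 1.55 between weeks *in vitro*). List calls at 1 week and 2 weeks were 0 to 1 and 1 to 1 for mast cell defining genes, 6 to 9 and 3 to 6 for inhibitors, 9 to 11 and 9 to 10 for angiotensin and substrate genes, and 10 at both for mesothelial genes. Depth limits the 7 untested members, at 0 to 13 fragments per library.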

Other observations

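Within the FPKM table, 1 fragment of *Mcpt2* was worth an FPKM of 0.0723 and 0.0835 in the *in vivo* libraries that held it. The *in vivo* 2-week libraries differed in the share of *Mcpt4* among all fragments of the stretch from *Cma1* to *Gzmb*, at 35.9% (95% exact interval 21.2 to 52.8) of 39 fragments and 70.0% (45.7 to 88.1) of 20 fragments, with equal *Mcpt4* fragments of 14, beside 13 and 2 fragments of *Cma1*. *Klk1*, a kallikrein of the same protease superfamily that was put in the plasmacytoid dendritic cell list, had an FPKM of 65.0 in the first of these libraries and 19.0 in the other, against 4.42 and 4.44 *in vivo* at 1 week and 1.99 to 9.97 *in vitro*.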
